A study of Homo sapiens with 6 samples.

Results

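The 10 long noncoding RNAs GAS5, SNHG1, SNHG6, SNHG7, SNHG8, SNHG12, SNHG15, ZFAS1, NEAT1 and MALAT1 were followed in erianin-treated CAL62 cells. They were chosen by name, 1 row per gene, from the 39168 Ensembl identifiers of the count and TPM tables, and where rows shared an identifier the row with most counts was taken. All 10 passed the filter on low counts and stood among the 12821 genes tested. CAL62 is an established cell line from a human anaplastic thyroid carcinoma. RNA sequencing compared 3 libraries of cells given 50 nM erianin, a bibenzyl compound of Dendrobium orchids, with 3 libraries of cells given its solvent DMSO, all after 48 h. No other allele or agent separated the groups. Because both groups came from a single cell line, the libraries do not sample different tumors.

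GAS5, ZFAS1 and the SNHG genes are host genes of small nucleolar RNAs (snoRNAs), which guide the chemical modification of ribosomal RNA in the nucleolus. The snoRNAs lie in introns and are released when these are spliced out, while the spliced host RNA is usually exported, bound by ribosomes on short reading frames and degraded by nonsense-mediated decay (NMD). Many hosts, GAS5 among them, begin with a terminal oligopyrimidine (TOP) run, the start shared with ribosomal protein genes, and as targets of NMD their RNAs accumulate when translation is blocked. NEAT1 and MALAT1 are neighbors on chromosome 11 that remain in the nucleus: NEAT1 is the scaffold of paraspeckles, and MALAT1 collects in nuclear speckles, which hold splicing factors.

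The starts of the host genes are shown because the pyrimidine run at the start is the sequence feature by which hosts are usually grouped. RefSeq promoter sequences on GRCh38.p14 were found for 7 of the 10 genes (GAS5, SNHG1, SNHG7, SNHG8, SNHG12, ZFAS1 and MALAT1). Each line gives 60 bases before and 50 after the RefSeq start on the gene's strand, from 5′ to 3′. Capitals mark the longest unbroken run of C and T that touches the 20 bases around the start.
SNHG12 (chr1:28581824-28581933, minus strand): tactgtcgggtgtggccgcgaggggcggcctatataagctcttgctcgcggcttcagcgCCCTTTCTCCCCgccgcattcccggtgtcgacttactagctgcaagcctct
SNHG7 (chr9:136728135-136728244, minus strand): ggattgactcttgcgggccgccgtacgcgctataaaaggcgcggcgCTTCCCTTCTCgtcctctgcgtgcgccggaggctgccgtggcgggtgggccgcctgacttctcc
ZFAS1 (chr20:49278582-49278691, plus strand): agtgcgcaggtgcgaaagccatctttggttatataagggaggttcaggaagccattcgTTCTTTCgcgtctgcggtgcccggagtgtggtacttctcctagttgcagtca
SNHG1 (chr11:62855836-62855945, minus strand): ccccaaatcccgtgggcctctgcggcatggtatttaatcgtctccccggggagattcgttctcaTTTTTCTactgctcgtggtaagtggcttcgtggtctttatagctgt
SNHG8 (chr4:118278702-118278811, plus strand): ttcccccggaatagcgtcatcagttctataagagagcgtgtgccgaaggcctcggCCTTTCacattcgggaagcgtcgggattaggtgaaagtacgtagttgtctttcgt
GAS5 (chr1:173868996-173869105, minus strand): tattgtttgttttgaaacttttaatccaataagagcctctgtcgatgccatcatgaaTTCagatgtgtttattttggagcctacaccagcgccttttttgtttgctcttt

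The run was 12 bases long in SNHG12, 11 in SNHG7, 7 in both ZFAS1 and SNHG1, 6 in SNHG8 and 3 in GAS5. In SNHG7 the run began at position -14 from the RefSeq start and ended before the start. In SNHG1 the run began at position 4, after the start. Neither of these runs therefore spanned the RefSeq start. A run of at least 7 bases, a length chosen after the values were seen, touched the 20 bases around a start in 5 of the 7 genes. These included MALAT1, with a run of 11 at 1 of its 2 RefSeq starts. The share over 35116 RefSeq promoters was 21.3%. The RefSeq start of GAS5, at base 173869045, lies upstream of the GENCODE 29 start at base 173868882, so the window does not hold the start of the GENCODE gene. The RefSeq starts of SNHG12 and ZFAS1 lie 1259 and 464 bases downstream of their GENCODE 29 gene starts, which their windows also leave out. Of the hosts with the longest runs, SNHG12 had each erianin library above every DMSO library, while in SNHG7 the groups overlapped. A relation between the run and the change with erianin was not tested. NEAT1, SNHG6 and SNHG15 are not shown.

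Other motifs were searched on both strands from 250 bases before to 50 after each start. CACGTG, the MYC E-box, was found in 1 of the 7 genes (SNHG7) and 7.26% of all promoters. TTCNNGAA, a pair of inverted units of a heat shock element, was found in 3 (GAS5, SNHG8 and ZFAS1) and 7.74%. In SNHG8 it lay at position 4, after the start. TGCGCA, the NRF1 core, was found in 3 (SNHG8, ZFAS1 and MALAT1) and 8.24%. TATAAA, the letters of a TATA box, was found in 3 (SNHG1, SNHG7 and MALAT1) and 11.5%. It lay at position -30 on the gene's strand in SNHG7 and at 1 MALAT1 start. In SNHG1 it lay at position 39 on the other strand, after the start. Only these exact letters were searched, so near matches in the other genes were not counted. CCGGAA, an ETS site, was found in 2 (SNHG8 and MALAT1) and 17.2%, and TGACNNNGC, an NRF2 element, in 1 (MALAT1) and 13.3%. TGATGNAA, the ATF4-C/EBP composite, was found in none of the 7 and in 3.62%.

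Reads counted on named genes ranged from 25776301 to 34107727 per library. DMSO replicate 3 stood apart: the biological coefficient of variation over all genes was 0.139 with all libraries and 0.0421 without this library, against 0.137 to 0.159 when any other library was left out. The values of each of the 10 genes are therefore given with and without it. The label of the cells was checked against marker genes. Of 8 thyroid follicular markers, the transcription factor PAX8 was well expressed (676 ± 55.2 CPM in DMSO, counts scaled to library size, SD, n = 3), FOXE1 was at 1.57 ± 0.633 CPM, and TSHR and NKX2-1 were listed at 0. The keratin KRT8 was at 1408 ± 199 CPM, the mesenchymal VIM at 1289 ± 194 CPM, and CD14, the only one of 5 leukocyte markers to pass the filter on low counts, was at most 4.33 CPM in any library. PAX8 (log2 fold change -0.66) and the matrix gene FN1 (-0.80) were downregulated and COL1A2 (1.35) was upregulated with erianin, and their part in the results was not tested.

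Of the 10 genes, NEAT1 and SNHG1 were upregulated and none was downregulated. A differentially expressed gene (DEG) had to reach an adjusted p below 0.05 with a log2 fold change beyond 0.5 in either direction in edgeR's quasi-likelihood test with Benjamini-Hochberg adjustment over all genes. The background was 5.37% of all genes upregulated and 3.36% downregulated. Besides NEAT1 and SNHG1, the genes SNHG12, SNHG15 and MALAT1 were higher in each erianin library than in every DMSO library, which made 5 of 10 without overlap and higher, against 19.5% of all genes. None of the 10 lay without overlap on the lower side, against 19.3% of all genes. With DESeq2, 3 of the 10 were upregulated (MALAT1 in addition) and 0 downregulated, against 6.65% and 4.14% of all genes. At an unadjusted p under 0.05 in edgeR 4 were higher and 0 lower, against 15.3% and 15.6% of all genes. Changes in the share of cells in one state and in the RNA per cell cannot be told apart in bulk RNA.

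**Figure D1:**
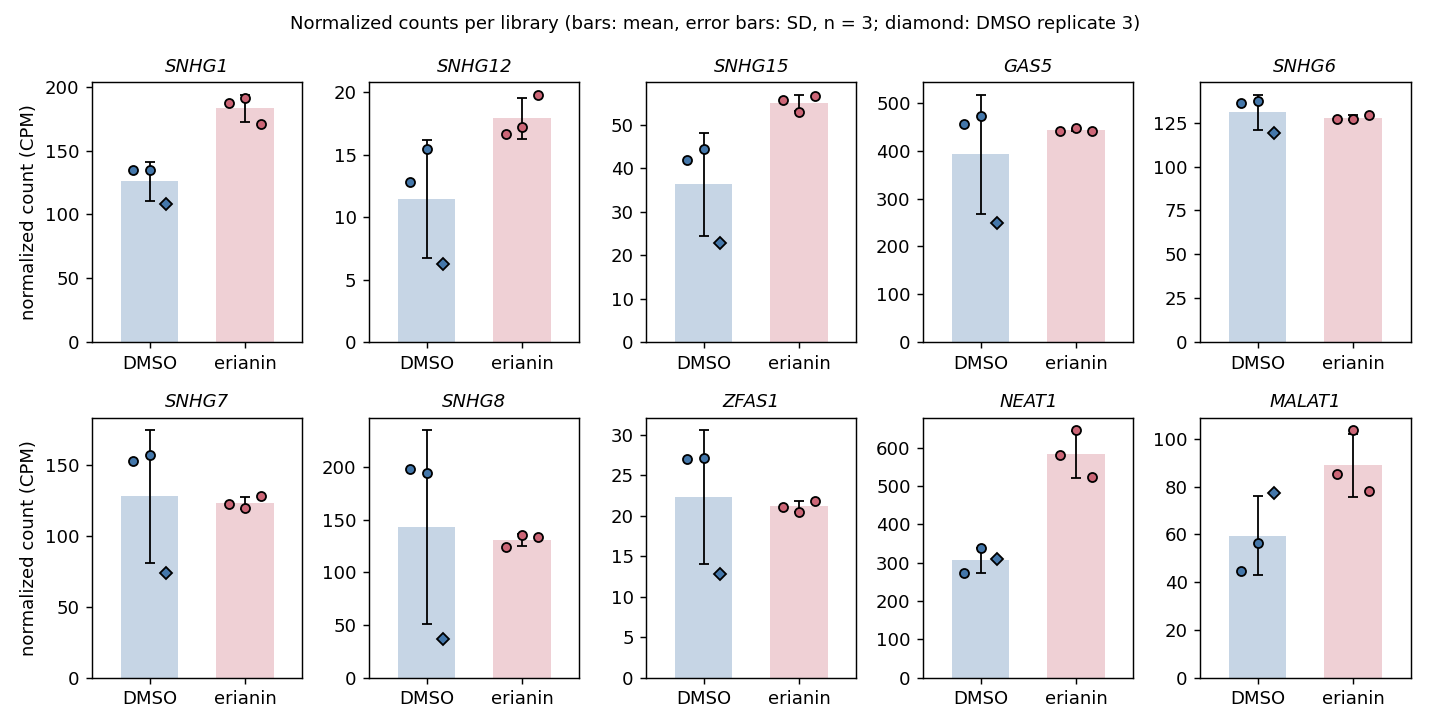
Normalized counts (CPM, linear axis from 0) of the 10 genes in 3 DMSO and 3 erianin libraries, with points for libraries, bars for means and error bars for the SD. The erianin points lie above all DMSO points for SNHG1, SNHG12, SNHG15, NEAT1 and MALAT1, and the diamond, DMSO replicate 3, is the lowest point for all 8 host genes.

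NEAT1, the paraspeckle scaffold (chr11:65422774-65445540, plus strand, GRCh38, ENSG00000245532), changed most clearly. Its level was 272, 338 and 309 CPM in DMSO replicates 1, 2 and 3, and 581, 646 and 523 CPM in erianin replicates 1, 2 and 3. The lowest erianin library was thus well above the highest DMSO library. The mean rose from 306 ± 33.0 to 584 ± 61.5 CPM (SD, n = 3), a 1.90-fold increase (log2 fold change 0.93, SE 0.11, edgeR adjusted p = 0.00400). DMSO replicate 3 lay between the other DMSO libraries, and without it the log2 fold change was 0.93 (SE 0.06, edgeR adjusted p = 9.62e-14). The gene passed both thresholds in all 20 fits made, with log2 fold changes from 0.82 to 1.13. The counts do not separate the short, polyadenylated form of NEAT1 from the long form that builds paraspeckles.

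MALAT1 (chr11:65497688-65506516, plus strand, ENSG00000251562), the speckle RNA, was at 44.6, 56.5 and 77.2 CPM in DMSO and at 85.1, 104 and 78.0 CPM in erianin. The groups did not overlap, but the highest DMSO library, replicate 3, was nearly level with the lowest erianin library. The log2 fold change was 0.58 (SE 0.20) and missed the threshold (edgeR adjusted p = 0.0958). It was 0.80 without DMSO replicate 3 (SE 0.08, edgeR adjusted p = 7.08e-10), which passed both thresholds. MALAT1 also passed with DESeq2 (adjusted p = 0.0375), and in 5 of the 20 fits in all.

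The ratio of NEAT1 to MALAT1 reads within a library, which needs no scaling, was 6.11, 5.99 and 4.0 in DMSO and 6.84, 6.24 and 6.71 in erianin. The ratio was higher in every erianin library than in every DMSO library. The mean log2 ratio was 2.40 ± 0.35 in DMSO and 2.72 ± 0.07 in erianin (SD, n = 3), a difference of 0.32 (two-sided exact permutation test, p = 0.1, the smallest value that 3 against 3 allows). The difference was 0.12 without DMSO replicate 3 (exact permutation p = 0.2). FRMD8, the nearest protein-coding gene upstream of NEAT1, had a log2 fold change of 0.08 (SE 0.20, edgeR adjusted p = 0.830) with all libraries and -0.15 (edgeR adjusted p = 0.0263) without DMSO replicate 3, and was a DEG in neither fit.

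Among the 8 host genes, SNHG1, SNHG12 and SNHG15 were above every DMSO library after erianin. SNHG1 (chr11:62851988-62855914, minus strand, ENSG00000255717), a host of several box C/D snoRNAs, was at 135, 135 and 108 CPM in DMSO and at 188, 191 and 171 CPM in erianin. It was the only host to pass both thresholds, with a 1.45-fold increase (log2 fold change 0.54, SE 0.10, edgeR adjusted p = 0.0155). The log2 fold change was 0.44 without DMSO replicate 3 (SE 0.05, edgeR adjusted p = 1.79e-09), below the fold threshold. The call was also lost on leaving out erianin replicate 1, 2 or 3 (adjusted p = 0.0845, 0.0863 and 0.0622) and with the trend on GC content removed (log2 fold change 0.46, adjusted p = 0.0552). SNHG1 passed both thresholds in 13 of 20 fits and was higher with erianin in all 20.

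SLC3A2, which encodes the heavy chain of amino acid transporters, begins 187 bases from SNHG1 on the opposite strand. SLC3A2 was at 331, 364 and 189 CPM in DMSO and at 410.4, 418 and 407 CPM in erianin. Its groups did not overlap, and DMSO replicate 3 was its lowest library. The log2 fold change was 0.49 (SE 0.22, edgeR adjusted p = 0.175), and 0.24 without DMSO replicate 3 (adjusted p = 1.26e-05). The protease gene PRSS12, which lies 214 bases beyond the 3′ end of SNHG8 on the opposite strand, was downregulated from 49.6 ± 0.895 to 34.4 ± 2.14 CPM (SD, n = 3, log2 fold change -0.52, edgeR adjusted p = 0.00906), with the same -0.52 without DMSO replicate 3.

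SNHG12 (chr1:28578538-28583132, minus strand, ENSG00000197989), which holds SNORD99 and H/ACA snoRNAs, was at 12.8, 15.4 and 6.26 CPM in DMSO and at 16.7, 17.3 and 19.8 CPM in erianin. SNHG15 (chr7:44983023-44986961, minus strand, ENSG00000232956) was at 42.0, 44.4 and 22.7 CPM in DMSO and at 55.6, 52.9 and 56.5 CPM in erianin. In both genes DMSO replicate 3 lay far below the other controls, and every erianin library lay above them all. The log2 fold changes were 0.64 (SE 0.29) and 0.60 (SE 0.23), and neither passed the test (edgeR adjusted p = 0.184 and 0.122). When DMSO replicate 3 was left out they were 0.33 (SE 0.10, edgeR adjusted p = 0.00476) and 0.34 (SE 0.06, edgeR adjusted p = 1.30e-05), past the p threshold but below the fold threshold.

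The remaining hosts lay between DMSO replicate 3 and the other controls. SNHG8 (chr4:118278709-118279823, plus strand, ENSG00000269893), a short host of an H/ACA snoRNA, was at 198, 195 and 37.1 CPM in DMSO and at 124, 136 and 133 CPM in erianin. DMSO replicate 3 was 5.23-fold below the mean of the other controls, and 0.0156% of all genes tested were as low or lower in that library. With all libraries the log2 fold change was -0.13 (SE 0.52, edgeR adjusted p = 0.900). Without DMSO replicate 3 SNHG8 was downregulated, at 0.668 times the mean of DMSO replicates 1 and 2 (log2 fold change -0.59, SE 0.04, edgeR adjusted p = 6.42e-13).

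SNHG7 (chr9:136721366-136728184, minus strand, ENSG00000233016) was at 153, 157 and 74.1 CPM in DMSO and at 122, 119.7 and 128 CPM in erianin. ZFAS1 (chr20:49278178-49295738, plus strand, ENSG00000177410), the host of the SNORD12 family, was at 27.0, 27.1 and 12.8 CPM in DMSO and at 21.1, 20.5 and 21.8 CPM in erianin. Both had the same shape as SNHG8, with the erianin libraries close together below DMSO replicates 1 and 2 and above replicate 3. Their log2 fold changes were -0.05 (SE 0.25, edgeR adjusted p = 0.917) and -0.08 (SE 0.26, edgeR adjusted p = 0.880). They were, in the fit without DMSO replicate 3, -0.33 (SE 0.04, edgeR adjusted p = 1.31e-07) and -0.36 (SE 0.08, edgeR adjusted p = 1.38e-04), short of the fold threshold. ZFAS1 overlaps the helicase-like gene ZNFX1 on the opposite strand by 249 bases, and strand use in counting is not given in the sources used here, so reads in that stretch cannot be told apart. ZNFX1 itself had a log2 fold change of -0.40 (SE 0.09, edgeR adjusted p = 0.0263), and -0.32 without DMSO replicate 3, both short of the fold threshold.

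GAS5 (chr1:173863900-173868882, minus strand, ENSG00000234741), the growth arrest host with a TOP start, was at 455, 473 and 249 CPM in DMSO and at 442, 446 and 441 CPM in erianin. Its erianin libraries spanned a narrow range just under DMSO replicates 1 and 2. The log2 fold change was 0.18 (SE 0.22, edgeR adjusted p = 0.638), and without DMSO replicate 3 it was -0.07 (SE 0.04, edgeR adjusted p = 0.126), so the direction rested on that library. SNHG6 (chr8:66921684-66926398, minus strand, ENSG00000245910), the host of SNORD87, was the steadiest, at 136, 137 and 119 CPM in DMSO and at 127, 127 and 129 CPM in erianin. Its log2 fold change was -0.04 (SE 0.08, edgeR adjusted p = 0.807), and -0.10 without DMSO replicate 3 (SE 0.04, edgeR adjusted p = 0.0475).

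**Figure D2:**
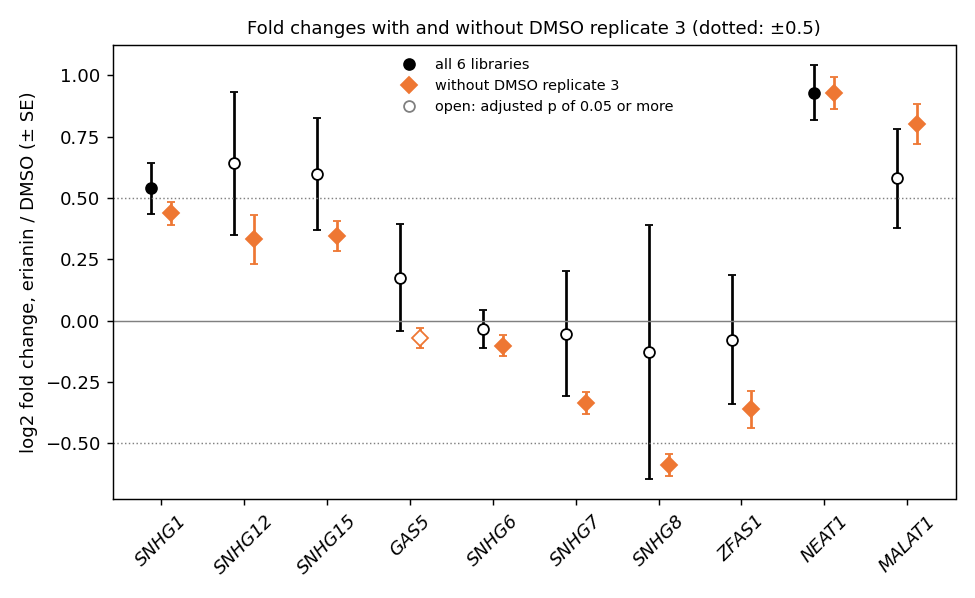
Log2 fold changes of erianin over DMSO with their SE for the 10 genes, from all 6 libraries (circles) and without DMSO replicate 3 (diamonds), with open symbols where the adjusted p was 0.05 or more and dotted lines at the fold threshold. NEAT1 is at 0.93 in both fits, while SNHG8 moves from -0.13 to -0.59.

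Leaving out DMSO replicate 3 thus changed which of the 10 genes were DEGs. NEAT1 and MALAT1 were then upregulated and SNHG8 was downregulated, against 11.4% of all genes upregulated and 6.11% downregulated in that fit. At an adjusted p under 0.05 without a fold threshold, 5 of the 10 were higher (SNHG1, SNHG12, SNHG15, NEAT1 and MALAT1) and 4 were lower (SNHG6, SNHG7, SNHG8 and ZFAS1), against 27.5% of all genes higher and 27.7% lower. That fit compares 3 libraries with 2.

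The deviation of DMSO replicate 3 was itself uneven across the 10 genes. On the log2 CPM scale (with 0.5 added) it was below the mean of DMSO replicates 1 and 2 by more than 0.5 in 6 of the 10 genes and by more than 1 in 4 of them, against 12.6% and 1.99% of all genes tested. The differences were -2.39 in SNHG8, -1.11 in SNHG12, -1.06 in SNHG7, -1.05 in ZFAS1, -0.91 in SNHG15 and -0.90 in GAS5. SNHG1 and SNHG6 were at -0.31 and -0.19, NEAT1 at 0.02 and MALAT1 at 0.62. The summed level of the 8 hosts was 1159, 1183 and 630 CPM in DMSO (replicate 3 last) and 1096, 1110 and 1101 CPM in erianin. All 8 hosts were therefore lowest in the same control library, whereas the nuclear RNAs were not. What sets this library apart was not tested.

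**Figure D3:**
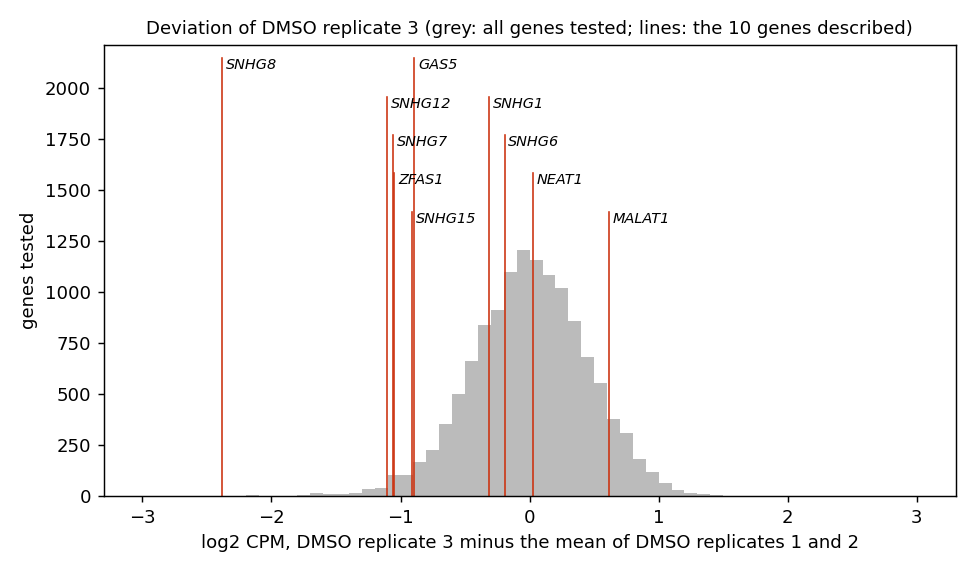
Distribution over the 12821 genes tested of the log2 CPM difference between DMSO replicate 3 and the mean of DMSO replicates 1 and 2 (x axis in log2 units, y axis in genes), with the 10 genes marked by lines. SNHG8 lies at -2.39, and 5 further hosts lie between -1.11 and -0.90, left of most genes.

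Levels between genes were compared per length, in TPM. In erianin the order was SNHG8 (377 ± 16.8 TPM), SNHG6 (328 ± 7.85), SNHG7 (143 ± 7.04), GAS5 (142 ± 1.29), NEAT1 (102 ± 9.28), SNHG1 (58.7 ± 2.63), SNHG15 (36.5 ± 1.76), MALAT1 (27.7 ± 3.74), ZFAS1 (19.3 ± 0.877) and SNHG12 (9.85 ± 1.04 TPM, all SD, n = 3). SNHG7 and GAS5 were the only neighbors in that order whose libraries overlapped. In DMSO the means ran from 367 ± 242 TPM for SNHG8 to 5.59 ± 2.48 TPM for SNHG12, ZFAS1 stood above MALAT1, and 4 neighboring pairs overlapped (SNHG8 and SNHG6, SNHG7 and GAS5, SNHG15 and ZFAS1, ZFAS1 and MALAT1). The order depends on the lengths used: the ratio of count to TPM gave GAS5 0.971 times the length of MALAT1, although their gene spans in GENCODE 29 are 4983 and 8829 bases. The TPM columns also summed to 59.1% of their nominal total in DMSO replicate 3 and to 72.6% to 78.3% in the other libraries. In the limma fit on log2(TPM + 1) the median log2 fold change of all genes was 0.18, against 0.0014 in the edgeR fit on counts. On that scale NEAT1 was at 1.11, and SNHG6, SNHG7, SNHG8 and ZFAS1 were at 0.17, 0.22, 0.41 and 0.18, with none of these 4 past the test.

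The likeness of the 10 genes over the 6 libraries ran from close to opposite. The Pearson correlation of log2 CPM was 0.999 between SNHG7 and ZFAS1, 0.99 between SNHG7 and SNHG8 and 0.99 between SNHG12 and SNHG15, while GAS5 gave 0.97 with SNHG8 and 0.91 with SNHG12, NEAT1 gave 0.91 with SNHG1, and MALAT1 gave -0.70 with SNHG6. These are descriptions over libraries that share their scaling and, for the hosts, the low value in DMSO replicate 3. Among genes of at least 10 CPM, those most like GAS5 were RPS12 (r = 0.998), which encodes a ribosomal protein, EBP (0.998), a sterol isomerase gene, and WDR83OS (0.997). Those most like NEAT1 were ENTPD7 (0.994), CD163L1 (0.993) and UVRAG (0.992), an autophagy gene. Those most like MALAT1 were POLB (0.992), a DNA repair polymerase gene, EDRF1 (0.987) and LUC7L3 (0.985), a splicing factor gene. Genes picked by likeness over these same libraries share the direction of change by that choice. Of those like NEAT1, ENTPD7 was a DEG (log2 fold change 0.60, edgeR adjusted p = 0.00914, and 0.58 without DMSO replicate 3). CD163L1 (0.48, edgeR adjusted p = 0.0110) was below the fold threshold, and UVRAG (0.25, edgeR adjusted p = 0.0937) missed both thresholds. POLB, like MALAT1, was not a DEG (0.22, edgeR adjusted p = 0.178).

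Of 23 other noncoding snoRNA hosts listed, 21 had a row, 12 of these were listed at 0 in every library, and 8 could be tested. A listing at 0 does not tell an absent RNA from one whose reads were not counted. EEF1G, a translation elongation factor gene, was also listed at 0 in every library. SNHG14, the long host of the Prader-Willi region snoRNAs, was downregulated, from 78.5, 92.5 and 86.4 CPM in DMSO to 53.8, 52.9 and 53.5 CPM in erianin. Its groups did not overlap (log2 fold change -0.68, SE 0.08, edgeR adjusted p = 0.00428), and the value was -0.69 without DMSO replicate 3. At an unadjusted p under 0.05, 1 of the 8 was higher and 2 were lower, against 15.3% and 15.6% of all genes. None was upregulated in edgeR, and DESeq2 called 1 upregulated (6.65% of all genes). The higher gene was in both cases SNHG10, which stood under 2 CPM. SNHG5 shared the low DMSO replicate 3 with GAS5, at 314, 301 and 142 CPM in DMSO and 325, 308 and 312 CPM in erianin. Its erianin libraries, unlike those of GAS5, did not all lie under DMSO replicates 1 and 2. The log2 fold change was 0.32 (SE 0.27, edgeR adjusted p = 0.464), and 0.03 without DMSO replicate 3. The median log2 fold change of the 8 was 0.09, against 0.0014 over all genes, and its sign turned without DMSO replicate 3 (-0.06, against 0.02 over all genes).

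Many snoRNAs lie in introns of protein-coding genes, and 16 such hosts were tested. NOP58, a core protein of box C/D snoRNPs and itself a host, was upregulated from 23.7 ± 2.62 to 34.2 ± 2.39 CPM (log2 fold change 0.53, edgeR adjusted p = 0.0224). EEF2, the translation elongation factor, was downregulated from 11743 ± 1295 to 8145 ± 53.1 CPM (SD, n = 3, log2 fold change -0.53, edgeR adjusted p = 0.0140). Both remained DEGs without DMSO replicate 3, when TAF1D, an RNA polymerase I cofactor gene, was also upregulated (0.55) and the ribosomal protein gene RPL3 also downregulated (-0.55, against -0.42 and an edgeR adjusted p of 0.0603 with all libraries). The median was 0.04, and 0.12 without that library. Of 16 genes for snoRNP proteins, NOP58 alone was upregulated and none was downregulated in edgeR. At an unadjusted p under 0.05, 3 were higher and 3 lower, against 15.3% and 15.6% of all genes, and DESeq2 called 0 downregulated (4.14% of all genes). The box C/D methyltransferase gene FBL had a log2 fold change of -0.26 (edgeR adjusted p = 0.109), and -0.34 without DMSO replicate 3, and the assembly factor gene RUVBL2 had -0.28 (edgeR adjusted p = 0.165) and -0.42. NUFIP1, also an assembly factor gene, was upregulated besides NOP58 without DMSO replicate 3 (0.61).

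Of 16 listed TOP genes of the translation machinery outside ribosomal proteins, 15 were tested, and EEF1G was listed at 0. EEF2 was the only DEG. The median was -0.22 against 0.0014 over all genes, and all 15 had a log2 fold change under 0 with all libraries, as did 49.7% of all genes. The uniform direction rested on DMSO replicate 3, since without it 10 were under 0 and 5 above (48.1% of all genes under 0). Of those above, NPM1 was at 0.17 (edgeR adjusted p = 8.62e-04) and EIF3E at 0.14 (edgeR adjusted p = 0.0145). The rest were barely above 0: EIF3H at 0.0041, PABPC1 at 0.0034 and NAP1L1 at 0.00049. At an unadjusted p under 0.05 with all libraries 6 were lower and 0 higher, against 15.6% and 15.3% of all genes. DESeq2 called 1 downregulated and 0 upregulated (4.14% and 6.65% of all genes). EEF1A1, the most abundant of them, was at 26438 ± 1096 CPM in DMSO and 24947 ± 650 CPM in erianin (SD, n = 3, log2 fold change -0.08, edgeR adjusted p = 0.514). In the fit without DMSO replicate 3 the median was -0.19, and EEF1D (-0.64) was a DEG besides EEF2 (-0.62). The TOP-start host GAS5 was at -0.07 in the same fit.

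Of 15 NMD factors, which degrade spliced host RNAs, none was a DEG in edgeR. At an unadjusted p under 0.05, 3 were higher and 1 was lower, against 15.3% and 15.6% of all genes, and DESeq2 called 1 upregulated (6.65% of all genes). The helicase gene UPF1 had a log2 fold change of 0.29 (edgeR adjusted p = 0.0888), and 0.18 without DMSO replicate 3, and RNPS1, of the exon junction complex, had 0.07 (edgeR adjusted p = 0.690) and 0.19. UPF2 (0.61) and UPF3B (0.66) were upregulated without DMSO replicate 3. The median was 0.10 with all libraries and 0.18 without that one.

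Of 12 genes for paraspeckle proteins, the partners of NEAT1, none was a DEG in edgeR. At an unadjusted p under 0.05, 1 was higher and 2 were lower, against 15.3% and 15.6% of all genes, and DESeq2 called 1 downregulated (4.14% of all genes). NONO, a core paraspeckle protein gene, went from 585 ± 78.8 to 414 ± 2.55 CPM (SD, n = 3) with a log2 fold change of -0.50 that stood just inside the fold threshold (-0.499, edgeR adjusted p = 0.0187), and -0.39 without DMSO replicate 3. DAZAP1, lower besides NONO, had a log2 fold change of -0.36 (edgeR adjusted p = 0.0246), and -0.29 without DMSO replicate 3. RBM14, the gene that was higher, went from 62.5 ± 2.22 to 84.8 ± 1.62 CPM (SD, n = 3) without overlap. Its log2 fold change was 0.44 (edgeR adjusted p = 0.00926), short of the fold threshold, and 0.41 without DMSO replicate 3. HNRNPK was at 605 ± 55.9 and 607 ± 7.59 CPM (SD, n = 3). The median of the 12 was -0.05, and 0.07 without DMSO replicate 3.

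Of 12 genes for nuclear speckle proteins, the surroundings of MALAT1, none was a DEG in edgeR or DESeq2. At an unadjusted p under 0.05, however, 5 were higher and 1 was lower, against 15.3% and 15.6% of all genes. Among those higher were SRSF7 (log2 fold change 0.47, edgeR adjusted p = 0.0136) and SRSF1 (0.42, edgeR adjusted p = 0.0162), both short of the fold threshold. SRSF5 was the lower gene (-0.29, edgeR adjusted p = 0.0474). Without DMSO replicate 3 these 3 were at 0.40, 0.41 and -0.27. The scaffold gene SRRM2 had a log2 fold change of -0.17 (edgeR adjusted p = 0.544), and 0.06 without DMSO replicate 3, and ACIN1 had 0.02 (edgeR adjusted p = 0.902). The median was 0.25. Without DMSO replicate 3 it was 0.31, and SRSF11 (0.55), PNN (0.70) and RBM25 (0.63) were upregulated.

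**Figure D4:**
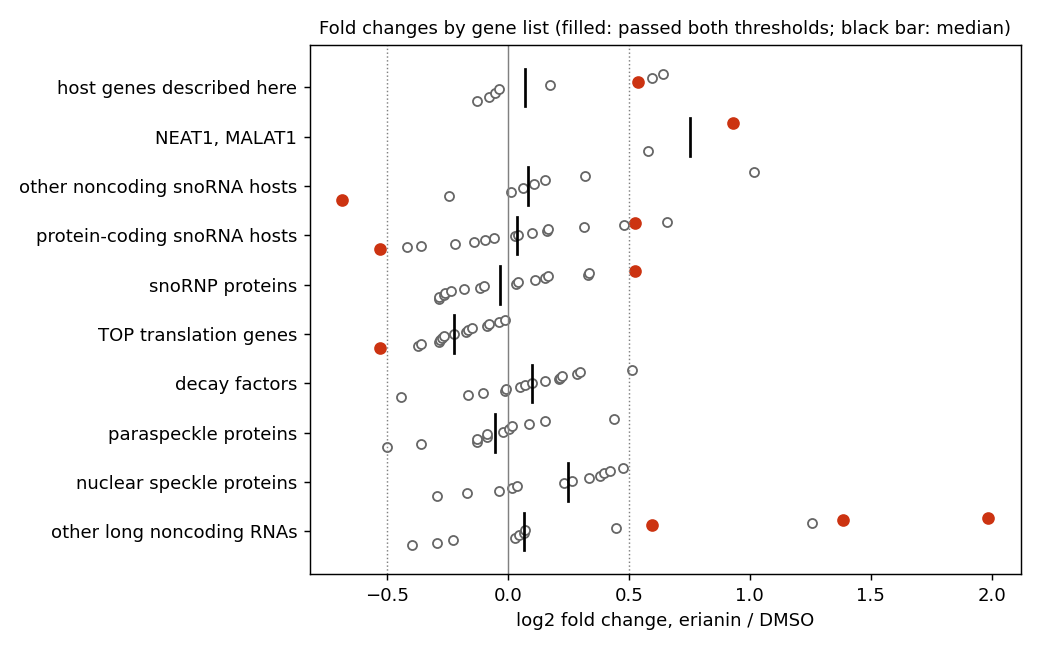
Log2 fold changes of erianin over DMSO for the genes of each list (x axis, from all 6 libraries), with filled points for DEGs, open points for other genes and a black bar at the list's median. NEAT1 is the filled point at 0.93, the TOP translation genes lie left of 0 with all libraries (10 of 15 without DMSO replicate 3), and SNHG14 is the filled point at -0.68 among other noncoding hosts.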

How the data were processed

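Total RNA of CAL62 cells was sequenced on the BGISEQ platform. The authors deposited a table of raw counts and a table of TPM values of the same libraries. The submitters' processing notes name fastp 0.23.2, STAR 2.7.10, featureCounts 2.0.1 and StringTie 2.2.1 and the build GRCh38. The annotation release and the strand setting are not given in the sources used here. Rows without an identifier (26480 of 65807, at most 0.00515% of counts) were left out. The 10 genes and the gene lists were chosen with earlier results of these data known.

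Counts were analysed with edgeR 4.0.16 in R 4.3.3 (TMM, filterByExpr, glmQLFit and glmQLFTest, no replicate term), whereas the study used DESeq2 with the same thresholds. DESeq2 1.42.0 and limma 3.58.1 on log2(TPM + 1), for genes averaging 1 TPM or more, were alternatives, with other factors, filters, GC and length offsets (lowess, span 0.5), a replicate block and each library left out. Partner lists and neighboring genes without DMSO replicate 3 were added after seeing the data. CPM used TMM library sizes. Standard errors came from the quasi-likelihood F. The series' design text calls the libraries replicate experiments, and whether they came from separate cultures is not stated, so the p-values measure the spread between these libraries, which may be technical. On simulated counts for 12681 genes edgeR recovered 200 of 200 changed genes with 0 false calls. With a GC trend added to the simulation (12677 genes) it recovered 172 with 2372 false calls, and 196 with 3 after the trend was removed. Every simulated gene had the same spread, and no single library stood apart as DMSO replicate 3 did. The planted changes all exceeded the fold threshold and lay in well-counted genes. The simulated recovery therefore does not measure recovery in these libraries. Named from each list were up to 3 DEGs and the 2 most abundant genes, plus the 3 genes most like GAS5, NEAT1 and MALAT1 and neighbors. SNHG10, SNHG5, TAF1D, NUFIP1, UPF2, UPF3B, EEF1D, EEF1G, NPM1, EIF3E, EIF3H, PABPC1, NAP1L1, RBM14, DAZAP1, SRSF1, SRSF5, SRSF7, SRSF11, PNN and RBM25 were named after their values were seen. Coordinates came from GENCODE release 29, promoters from RefSeq. Not every gene under this rule is reported here. Western blots and animal data were not analysed here.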

Additional observations from a re-analysis of the deposited data

How the results depend on the processing

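In the 20 fits at the thresholds of the report, NEAT1 kept its direction and its call, and SNHG1, SNHG12, SNHG15 and MALAT1 kept their direction. On leaving out 1 library at a time, upregulated genes numbered 1 to 2 of the 10 and downregulated genes 0 to 1. Removal of the GC trend, alone or with the replicate block, left 1 upregulated gene, and a log2 threshold of 1 left 0. The GC fit without DMSO replicate 3 gave 1 downregulated gene. Of the other noncoding hosts, 1 was upregulated with DESeq2, with limma on log2(TPM + 1) or log2(TPM + 0.1), and in the GC fit without DMSO replicate 3. None was downregulated in the 3 TPM fits (0) or at a log2 threshold of 1 (0). The log2 ratio of NEAT1 to MALAT1 differed by 0.12 to 0.43 with 1 library left out.

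Direction reversed in these cases, and the cause was not tested. Upper-quartile factors gave 0.019 for SNHG6 and 0.0039 for SNHG7. limma on log2(TPM + 1), with or without the filter, gave 0.17 for SNHG6, 0.22 for SNHG7, 0.41 for SNHG8 and 0.18 for ZFAS1, and log2(TPM + 0.1) gave 0.17, 0.22, 0.41 and 0.20. Without 1 library the extremes were -0.33 to 0.12 for SNHG7, -0.59 to 0.17 for SNHG8, -0.36 to 0.087 for ZFAS1 (0.076 without DMSO replicate 1) and -0.071 to 0.33 for GAS5. SNHG7 was at 0.09 and SNHG8 at 0.17 without DMSO replicate 1, and SNHG8 at 0.16 without DMSO replicate 2. Removal of the GC trend gave 0.11 for SNHG7 and 0.032 for ZFAS1, and -0.24 for GAS5 without DMSO replicate 3.

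Replicate numbers did not pair the libraries (correlations of deviations 0.0014, 0.03 and -0.03). With the number as a replicate block, NEAT1 (0.93) and SNHG1 remained upregulated, 2 of the 10 in all, and SNHG7 was at 0.020 and SNHG8 at 0.17. The log2 ratio of NEAT1 to MALAT1, paired by number, differed by 0.32. An exact test that flips the signs of the paired differences gave p = 0.25, the smallest value it allows here. The block with the GC trend removed gave 0.13 for SNHG7, 0.20 for SNHG8 and 0.077 for ZFAS1.

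Over all genes, 688 were upregulated and 431 downregulated, 384 and 281 with the block, 822 and 299 with upper-quartile factors, 1098 and 94 with limma on log2(TPM + 1), 172 to 184 and 126 to 144 without an erianin library, 433 or 425 upregulated without DMSO replicate 1 or 2, 1135 upregulated in the GC fit without DMSO replicate 3, and 1485 and 797 without DMSO replicate 3. TPM keeps no depth. With 3 libraries in a group no permutation p goes below 0.1.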

Other observations

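Long noncoding RNAs outside the snoRNA hosts were listed for comparison with NEAT1 and MALAT1, and 12 of them could be tested. LINC-PINT, a p53-responsive RNA, was upregulated from 2.02 ± 0.0764 to 8.0 ± 0.246 CPM (SD, n = 3, log2 fold change 1.99, edgeR adjusted p = 7.04e-04, and 1.99 without DMSO replicate 3). KCNQ1OT1, the antisense RNA of an imprinted domain, was upregulated from 2.22 ± 0.688 to 5.85 ± 1.72 CPM (log2 fold change 1.39, edgeR adjusted p = 0.0213, and 1.67 without DMSO replicate 3). CYTOR was upregulated from 12.2 ± 1.81 to 18.5 ± 1.10 CPM (log2 fold change 0.60, edgeR adjusted p = 0.0250), and at 0.48 without DMSO replicate 3 it fell below the fold threshold. NORAD, the most abundant of them, was at 414 ± 8.37 CPM in DMSO and 428 ± 39.9 CPM in erianin, and TUG1 was at 77.5 ± 23.6 and 63.4 ± 3.04 CPM (SD, n = 3 throughout). Neither was a DEG. None of the 12 was downregulated in edgeR or DESeq2. At an unadjusted p under 0.05, 4 were higher and 1 was lower, against 15.3% and 15.6% of all genes. The median was 0.07, and 0.24 without DMSO replicate 3.

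The snoRNAs themselves were hardly counted. Of 22 annotated snoRNA entries inside the 10 genes on the same strand, 11 had a row, and 8 of these were listed at 0 in every library. The highest count of any in a library was 18, for SNORD12B in ZFAS1. Some entries cover nearly the same stretch as another, as for SNORA17A, SNORA17B and SNORA16A. No snoRNA entry was found inside GAS5, so its snoRNAs are not covered. Of 8 RNAs without a poly(A) tail that had a row, 7 were listed at 0, all of them histone genes. The change in host RNA therefore could not be set beside the level of the mature snoRNAs.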
